A study of Mus musculus with 6 samples.

Results

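Hippocampal RNA of control mice and of mice with knockdown (KD) of L-DL, the long isoform of the RNA-binding protein hnRNP DL, was examined for 10 activity-linked neuropeptides and secreted factors. These are the genes Bdnf, Inhba, Vgf, Scg2, Nptx2, Penk, Pdyn, Tac1, Adcyap1 and Crh. They were chosen by name, as 10 of the 52550 genes in the count table, with earlier results of these data known. All 10 passed the filter on low counts. Both groups were male C57BL/6 J mice whose CA1 areas were injected on both sides at 8 weeks of age with adeno-associated virus, which carried control shRNA in the control mice and 4 L-DL shRNAs, driven by H1 promoters, in the KD mice. The sample labels call the first group wild type and name the second group a knockout in one field and a knockdown in another, and the virus titre stated for the control was the higher of both. Each group held 3 libraries, with 16052529 to 17913064 reads counted on genes per library. The viral treatment was aimed at CA1, whereas the RNA came from hippocampus.

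Neurons pack neuropeptides and several growth factors into dense-core granules and release them when they fire strongly. Transcription of many of these genes is itself turned on by synaptic activity, through calcium signalling to the factor CREB and through immediate early transcription factors such as Npas4. In the hippocampus, the products act on synaptic strength, on the recruitment of glutamate receptors and on inhibition by interneurons.

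Levels are given as CPM, the read counts of each library scaled to the same total after TMM adjustment of the library sizes. The targeted gene, Hnrnpdl, whose count covers all of its isoforms, was at 176, 184 and 171 CPM in control libraries 1 to 3 and at 217, 150.3 and 173 CPM in libraries 1 to 3 labelled L-DL KD. The groups overlapped (log2 fold change 0.03, edgeR adjusted p = 0.898, and -0.13 without KD library 1). The gene-level counts therefore do not show a lower level of its RNA, and in these libraries the KD group is named from the labels. The paper assessed the knockdown by immunoblots of L-DL protein in injected hippocampus and describes L-DL as reduced in its KD mice. Counts over all isoforms do not measure that protein. Control library 3 and KD library 1 stood apart from the others of their groups in transcripts of the choroid plexus.

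Of the 10 genes, 6 differed between the groups. Scg2 rose and Vgf, Nptx2, Pdyn, Tac1 and Inhba fell in the KD libraries, while Bdnf, Penk, Adcyap1 and Crh did not pass the test. The changes of those that passed ran from a 2.38-fold higher level of Scg2 to a 2.34-fold lower level of Tac1. The test was edgeR's quasi-likelihood test over all 17621 genes with enough counts, at a Benjamini-Hochberg adjusted p under 0.05. The same test called 30.5% of all genes, 15.6% as higher and 15.0% as lower in KD, so many genes besides these differed. The median log2 fold change was -0.78 over the 10 genes and 0.01 over all genes tested. Without the choroid-rich control library 3 and KD library 1, 6 of the 10 genes were again called, 1 as higher and 5 as lower. In bulk tissue, fewer cells of a type and less RNA per cell cannot be told apart.

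In CPM, the 3 control and 3 KD values did not overlap for 9 of the 10 genes, all but Penk, beside 47.2% of all genes tested. Between genes, levels were compared per kilobase of annotated exon. On that scale Scg2 was the most abundant in the control libraries, at 79.7 ± 6.49 CPM per kilobase (SD, n = 3), followed by Vgf at 70.1 ± 4.45 and Nptx2 at 19.3 ± 3.97. A middle group held Penk at 7.91, Bdnf at 7.30, Pdyn at 5.91 and Inhba at 5.15 CPM per kilobase, and the lowest were Crh at 1.79, Tac1 at 1.34 and Adcyap1 at 1.19. The control ranges of Penk and Bdnf overlapped, as did those of Pdyn and Inhba, of Crh and Tac1, and of Tac1 and Adcyap1, so the order within these pairs is not beyond the spread. In the KD libraries the top of this order drew apart, with Scg2 at 189.6 ± 2.53 and Vgf at 40.9 ± 4.66 CPM per kilobase. Penk, at 15.6 ± 8.71, came to lie above Nptx2, at 10.04 ± 2.37, but the ranges of these genes overlapped.

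**Figure D1:**
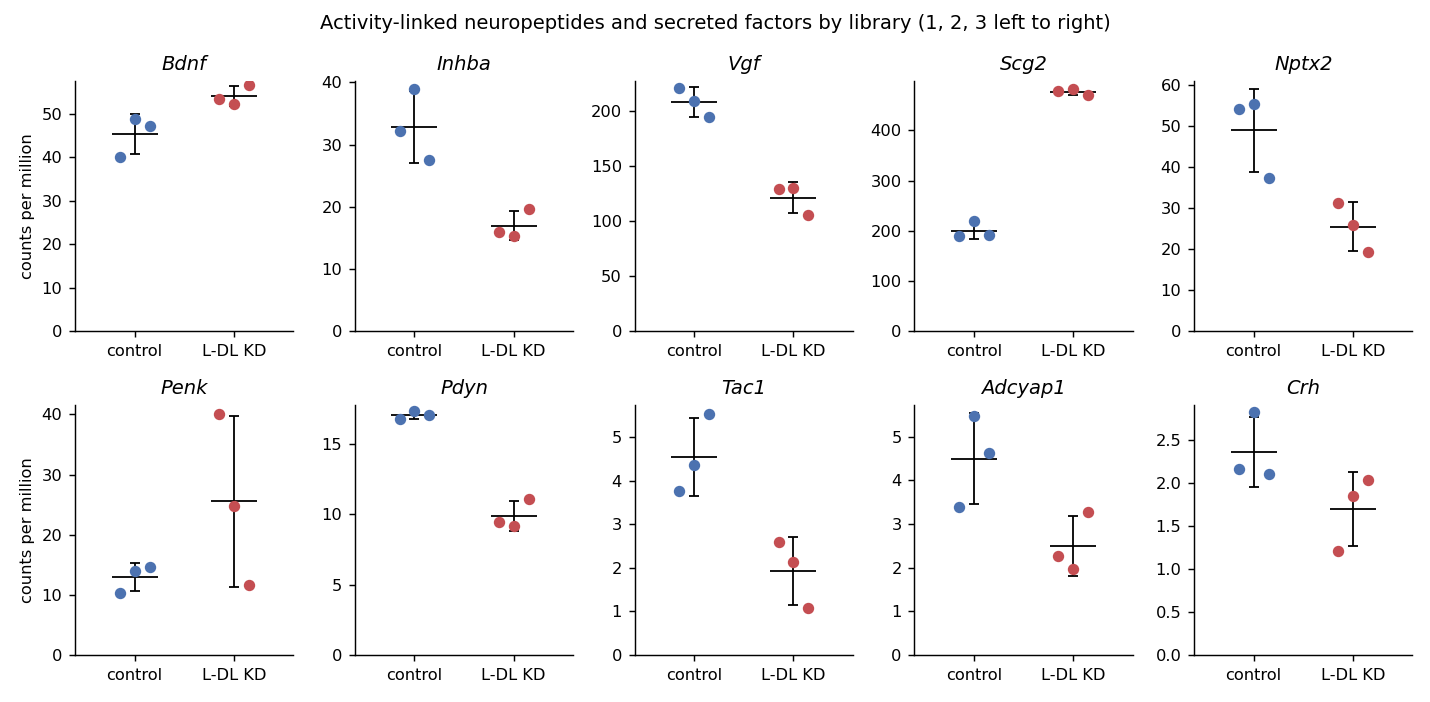
Level of each gene in every library, in CPM (vertical axes, each starting at 0), for control (blue) and L-DL KD (red), with libraries 1 to 3 from left to right; horizontal lines are group means and bars are 1 SD (n = 3). The KD points of Scg2 all sit at or above 470.1 and its control points at or below 219, whereas the KD points of Penk spread from 11.7 to 40.1 and overlap the control points.

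Among the secreted growth factors, Inhba fell and Bdnf did not pass the test. Inhba (ENSMUSG00000041324, chr13:16011851-16031621 in GRCm38) encodes the βA subunit of activin and inhibin, and activin made by neurons during activity acts on dendritic spines. It measured 32.2, 39.0 and 27.5 CPM in control libraries 1 to 3 and 15.98, 15.4 and 19.6 CPM in KD libraries 1 to 3. Every KD library therefore lay below the lowest control library. Inhba had a log2 fold change of -0.95 ± 0.16 (SE, n = 3 per group, edgeR adjusted p = 0.0033), a 1.94-fold lower level. A pseudogene and an antisense gene lie across Inhba on the other strand without sharing exonic bases with it.

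Bdnf (ENSMUSG00000048482, chr2:109674700-109727007) encodes brain-derived neurotrophic factor, which is transcribed from several alternative first exons. Its level was 40.1, 48.8 and 47.2 CPM in the controls and 53.3, 52.3 and 56.7 CPM in the KD libraries. The KD values all lay above the control values, by a small margin. The log2 fold change of 0.25 ± 0.09 (SE, n = 3 per group) had an edgeR adjusted p of 0.0694. An antisense gene, Gm45346, shares exonic bases with Bdnf. It had at most 6 counts in a library, and without a stated strand setting reads from shared bases cannot be told apart.

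The granin family members, which sort into dense-core granules and are cut into peptides there, moved in opposite directions. Scg2 (ENSMUSG00000050711, chr1:79434669-79440120) encodes secretogranin II, the precursor of secretoneurin. It had 3085, 3726 and 3021 counts in the controls and 8673, 8609 and 7888 counts in the KD libraries, which is 190.1, 219 and 192 CPM against 478, 483 and 470.1 CPM. All 3 KD libraries were high and close together, with a coefficient of variation of 1.34%. The log2 fold change of Scg2 was 1.25 ± 0.08 (SE, n = 3 per group, edgeR adjusted p = 8.37e-05).

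Vgf (ENSMUSG00000037428, chr5:137026392-137033351) encodes the VGF nerve growth factor inducible precursor, from which peptides such as TLQP-21 are cut. It was at 221, 209 and 195 CPM in the controls and at 129, 130.3 and 106 CPM in the KD libraries. The groups did not overlap, and KD library 3 was the lowest. Vgf fell by 0.78 ± 0.10 on the log2 scale (SE, n = 3 per group, edgeR adjusted p = 0.00101), a 1.71-fold lower level.

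Nptx2 (ENSMUSG00000059991, chr5:144545902-144557478) encodes neuronal pentraxin 2, also called NARP, a secreted protein that gathers AMPA-type glutamate receptors at excitatory synapses onto interneurons. Its CPM was 54.1, 55.2 and 37.3 in the controls and 31.3, 25.8 and 19.3 in the KD libraries. Control library 3 was low in its group, yet above all KD libraries. Nptx2 fell by 0.94 ± 0.20 on the log2 scale (SE, n = 3 per group, edgeR adjusted p = 0.0104), which is a 1.92-fold lower level.

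The opioid peptide precursors differed from each other. Pdyn (ENSMUSG00000027400, chr2:129686565-129699844) encodes prodynorphin, the source of dynorphins, which granule cells of the dentate gyrus make and which act on the kappa receptor. It stood at 16.8, 17.4 and 17.1 CPM in the controls and at 9.42, 9.14 and 11.1 CPM in the KD libraries. The control libraries lay within a coefficient of variation of 1.74%, and all KD libraries lay below them. Pdyn fell by 0.79 ± 0.13 on the log2 scale (SE, n = 3 per group, edgeR adjusted p = 0.00282). Of 12 marker genes of dentate granule cells, 3 were higher and 5 lower in KD, beside 15.6% and 15.0% of all genes. Their summed level was 744 to 849 CPM in the controls and 881 to 953 CPM in the KD libraries, with no marker at 0. The part of these cells in the Pdyn result was not tested.

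Penk (ENSMUSG00000045573, chr4:4133531-4138819) encodes proenkephalin, the source of enkephalins. It had 166, 238 and 229 counts in the controls and 728, 442 and 196 counts in the KD libraries, or 10.2, 14.0 and 14.5 CPM against 40.1, 24.8 and 11.7 CPM. KD libraries 1 and 2 were high, and KD library 3 lay inside the control range. The log2 fold change of 0.98 ± 0.39 (SE, n = 3 per group) had an edgeR adjusted p of 0.0902. This value depended on which KD library was left out. The log2 fold change was 1.33 without KD library 3 (edgeR adjusted p = 0.00706) and 0.50 without KD library 1 (edgeR adjusted p = 0.238). KD library 1 was also the highest in markers of the choroid plexus, whose 8 genes summed to 5268 CPM there, to 128 and 38.9 CPM in KD libraries 2 and 3, and to 450 to 4713 CPM in the controls, of which control library 3 was the highest. Penk was at 14.5 CPM in control library 3 and at 14.0 CPM in control library 2. Without both choroid-rich libraries the log2 fold change of Penk was 0.58 ± 0.34 (adjusted p = 0.235). Penk is also strongly expressed in striatum. Of 10 markers of striatal spiny neurons 1 was higher in KD, Drd1, and 1 was lower, Pde10a, beside 15.6% and 15.0% of all genes. Their summed level was 290 to 354 CPM in the controls and 230 to 301 CPM in the KD libraries, and no marker was at 0. The parts of choroid plexus and of striatal tissue in the Penk values were not tested.

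Tac1 (ENSMUSG00000061762, chr6:7554879-7565834) encodes preprotachykinin, the source of substance P and neurokinin A. Its counts were low, at 61, 74 and 87 in the controls and 47, 38 and 18 in the KD libraries, which is 3.76, 4.35 and 5.53 CPM against 2.59, 2.13 and 1.07 CPM. The groups did not overlap, and KD library 3 held the lowest value. Tac1 fell by 1.23 ± 0.34 on the log2 scale (SE, n = 3 per group, edgeR adjusted p = 0.0267). Leaving out a library ended this call for 4 of the 6 libraries, with adjusted p = 0.0501, 0.0665 and 0.0960 without control libraries 1, 2 and 3 and 0.0621 without KD library 2. In the hippocampus Tac1 is made mainly in interneurons. Of 12 markers of GABAergic interneurons 8 were lower in KD, beside 15.0% of all genes, and the others were not called. Gad1, Gad2 and Slc32a1 were among the lower ones. The summed level of these markers was 1227 to 1350 CPM in the controls and 569 to 813 CPM in the KD libraries, with the lowest in KD library 3 and no marker at 0, and their part in the Tac1 result was not tested.

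Adcyap1 (ENSMUSG00000024256, chr17:93199017-93206537) encodes the peptide PACAP, which raises cyclic AMP in its target cells. It measured 3.39, 5.47 and 4.64 CPM in the controls and 2.26, 1.96 and 3.28 CPM in the KD libraries. The highest KD value, in library 3, was just under the lowest control value. Adcyap1 had a log2 fold change of -0.85 ± 0.28 (SE, n = 3 per group), with an edgeR adjusted p of 0.0540. Without KD library 3 it was -1.09 and passed the test (adjusted p = 0.0348).

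Crh (ENSMUSG00000049796, chr3:19693401-19695396) encodes corticotropin-releasing hormone, which hippocampal interneurons release under stress. Its counts were the lowest of the 10 genes in the controls, with 35, 48 and 33, and were 22, 33 and 34 in the KD libraries. This is 2.16, 2.82 and 2.096 CPM against 1.21, 1.85 and 2.03 CPM, so the groups were apart by a narrow gap. The log2 fold change of -0.48 ± 0.30 (SE, n = 3 per group) did not pass the test (edgeR adjusted p = 0.261), which does not show that Crh was the same in both groups.

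**Figure D2:**
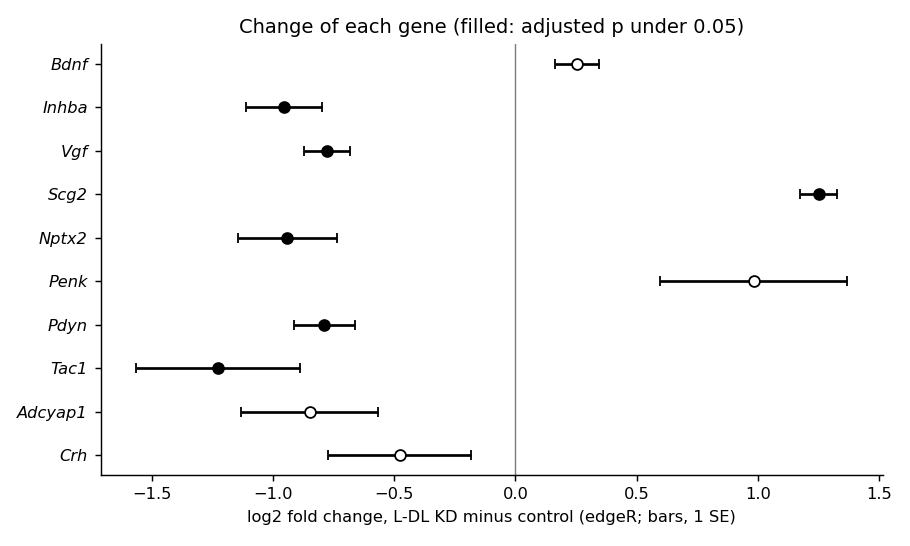
Log2 fold change of each gene, L-DL KD minus control (horizontal axis), from edgeR with bars of 1 SE; filled points have an adjusted p under 0.05. Scg2 at 1.25 is the only filled point to the right of 0, and Inhba, Vgf, Nptx2, Pdyn and Tac1 are filled between -0.78 and -1.23.

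Promoter sequences show which of these genes carry the letters that CREB recognises next to their start. RefSeq promoters of build GRCm38.p6 were at hand for 6 of the 10 genes (Adcyap1, Bdnf, Inhba, Pdyn, Scg2 and Tac1), 14 in all since Bdnf has 7 starts listed. The 250 bases before each start were searched on both strands for the cyclic AMP response element TGACGTCA, for its core TGACG, which the element contains, and for the AP-1 letters TGACTCA. The full element was in 1.55% of all 32851 mouse promoters of this length, the core in 17.8% and the AP-1 letters in 4.46%. Of the 14 promoters, 1 held the full element (Scg2), 5 held the core (Adcyap1, Bdnf, Scg2 and Tac1) and 0 held the AP-1 letters. The matches are shown with their surroundings, 30 bases each, 5′ to 3′ on the strand of the gene, with the matching letters in capitals.
Scg2, chr1:79440076-79440105, minus strand: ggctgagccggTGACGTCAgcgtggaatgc
Tac1, chr6:7555006-7555035, plus strand: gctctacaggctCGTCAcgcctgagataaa
Tac1, chr6:7554852-7554881, plus strand: tccctaaaattgCGTCAtttcgaacacaat
Bdnf, chr2:109692389-109692418, plus strand: tatgacagctcaCGTCAaggcagcgtggag
Adcyap1, chr17:93198914-93198943, plus strand: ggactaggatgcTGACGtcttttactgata
The element of Scg2 begins 68 bases before the RefSeq start and the nearer core of Tac1 begins 43 bases before it. Both lie inside an exon of a longer GENCODE transcript. Of the genes shown, Scg2 rose, Tac1 fell and Bdnf and Adcyap1 did not pass the test, so the matches stood beside genes of either direction. The 250 bases before the listed starts of Pdyn and Inhba, which fell, held none of the 3 motifs. A match is a description of the letters and was not tested as a binding site.

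Splicing of these genes could be followed for 10 events in 6 of them, from reads across splice junctions. The events comprised 3 alternative 5′ splice sites of Bdnf, 2 skipped exons each of Vgf and Tac1, 1 skipped exon each of Penk and Pdyn, and 1 retained segment of Scg2. No event was listed for Nptx2, Adcyap1, Crh or Inhba. PSI is the share of transcripts that include the segment, from 0 to 1, computed per library from the junction counts over the effective length of each form. Only 4 events had enough reads of both forms for the test, and 0 of them changed (edgeR, 0 at an unadjusted p under 0.05, 0 by limma). Over all events the same test called 48 of 18829, or 0.255%. The control and KD values were apart in 0 of the 4 tested events, beside 18.4% of all events tested, and they also overlapped or tied in the other 6. The splicing table gives its replicates no numbers, so they are listed here in no set order.

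Scg2 has the best covered event, a segment of 120 bases inside the coding part of the long exon 2 of transcript Scg2-201, at chr1:79435932-79436051 on the minus strand, which is either kept or spliced out. Its length is a multiple of 3, and its ends, in capitals, are those of an intron.
Scg2 segment: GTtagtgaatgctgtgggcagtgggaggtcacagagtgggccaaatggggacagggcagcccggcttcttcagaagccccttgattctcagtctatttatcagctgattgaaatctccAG
The segment was kept with a PSI of 0.558, 0.548 and 0.623 in the controls and 0.571, 0.553 and 0.544 in the KD libraries. These ranges overlap, and the log2 ratio of the forms changed by -0.11 ± 0.23 (SE, n = 3 per group, edgeR adjusted p = 0.897). By limma the 95% interval of that change ran from -0.99 to 0.75. Junction reads over the event numbered 1676 in the controls and 4886 in the KD libraries, so both forms were read more often in KD while their ratio did not pass the test.

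Tac1 makes its peptide precursors by skipping exons. Skipping of exon 4 gives the gamma form, and skipping of exon 6 gives the alpha form, which lacks neurokinin A. Exon 4 lies at chr6:7557216-7557260 and exon 6 at chr6:7559099-7559152, both on the plus strand and numbered as in transcript Tac1-205. Both are coding, with 45 and 54 bases, and both lengths are multiples of 3.
Tac1 exon 4: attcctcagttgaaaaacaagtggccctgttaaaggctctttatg
Tac1 exon 6: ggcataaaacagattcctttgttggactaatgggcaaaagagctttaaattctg
Exon 4 had a PSI of 0.436, 0.522 and 0.347 in the controls and 0.205, 0.481 and 0.436 in the KD libraries, on 76 and 47 junction reads per group. Its log2 ratio changed by -0.58 ± 0.87 (SE, n = 3 per group, edgeR adjusted p = 0.853) and did not pass the test. Exon 6 was included nearly always, at 0.977 ± 0.039 on average in control libraries (SD, n = 3) and 0.986 ± 0.025 in KD. With 2 and 1 skipping reads per group it was too poorly covered in the skipped form to test. By these junction reads, transcripts with the neurokinin A exon made up most of Tac1 in both groups.

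The tested skipped exon of Vgf lies in its 5′ UTR, with 116 bases at chr5:137030724-137030839. Its PSI was 0.139, 0.083 and 0.091 in the controls and 0.098, 0.154 and 0.071 in the KD libraries. Inclusion was low throughout and the groups overlapped (edgeR adjusted p = 0.965). The other Vgf exon, of 97 bases, had 1 inclusion read in the controls and 3 in KD, all 3 in 1 library, and was not tested.

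In Bdnf the tested event was a choice of 5′ splice sites that adds 83 bases to a noncoding exon, at chr2:109676313-109676395. PSI was 0.763, 0.693 and 0.811 in the controls and 0.770, 0.468 and 0.659 in the KD libraries, on 59 and 77 junction reads per group. KD values reached lower but overlapped the control values (edgeR adjusted p = 0.770). The other 2 Bdnf events, which share this exon, each had 1 skipping read in each group. The Penk exon at chr4:4138006-4138145, which holds the start codon, was skipped in 0 of 186 reads in the controls and 2 of 356 in KD. The Pdyn exon at chr2:129689737-129689885, which also holds the start codon, was skipped in 1 of 153 reads in the controls and 0 of 82 in KD. Neither had enough skipping reads for the test.

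**Figure D3:**
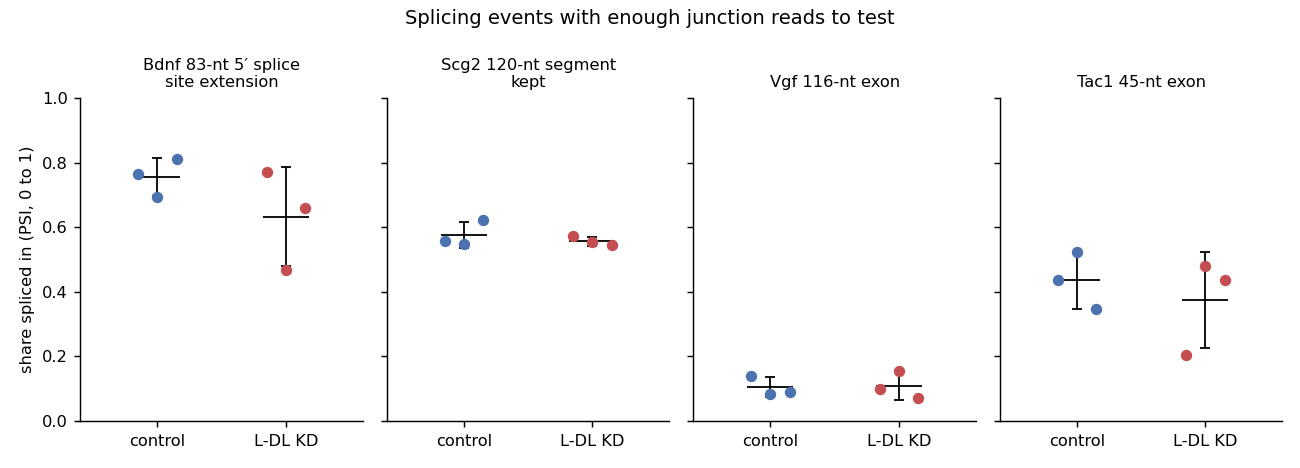
PSI (vertical axes, 0 to 1) of the 4 events with enough reads, by library, in control (blue) and L-DL KD (red); horizontal lines are group means and bars are 1 SD (n = 3). The control and KD points overlap in all 4 panels, and the KD points of Scg2, the event with the most reads, lie between 0.544 and 0.571.

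Of 28 receptors and binding partners of the 10 factors, 26 were tested, of which 4 were higher and 4 lower, with a median log2 fold change of 0.10. These shares are near those of all genes, 15.6% higher and 15.0% lower. The largest fall was in Crhbp, the secreted protein that binds corticotropin-releasing hormone, from 21.1, 20.7 and 22.6 CPM in the controls to 9.37, 6.90 and 4.47 CPM in KD (log2 fold change -1.63 ± 0.24, SE, edgeR adjusted p = 0.00192). Crhbp is made by interneurons. Crhbp and the summed interneuron markers were each lowest in KD library 3, and the part of these cells in the Crhbp result was not tested. The PACAP receptor Adcyap1r1 rose, at 229, 230.0 and 217 CPM in the controls and 238, 336 and 367 CPM in KD (log2 fold change 0.48 ± 0.14, adjusted p = 0.0388). KD library 1 was close to the controls. For BDNF, the receptor Ntrk2 (log2 fold change -0.17, adjusted p = 0.151) and the low-affinity receptor Ngfr (0.32, adjusted p = 0.557) were not called, and Sort1, which sorts proBDNF, fell by 0.50 on the log2 scale (adjusted p = 0.00674). Nptx1, which assembles with Nptx2, fell by 0.53 on the log2 scale (edgeR adjusted p = 9.52e-04), and their transmembrane partner Nptxr had a log2 fold change of -0.18 (adjusted p = 0.427). The tachykinin receptors Tacr1 and Tacr3, the CRH receptor Crhr1 and the delta opioid receptor Oprd1 lay between 0.07 and 0.19 in log2 fold change and were not called. The opioid receptors Oprm1 and Oprk1 had too few counts to test, at 1.08 CPM or less in every library. Among the activin partners, the type I receptor Acvr1c rose, from 12.6, 12.6 and 18.5 CPM in the controls to 47.2, 44.1 and 29.98 CPM in KD (log2 fold change 1.47 ± 0.21, SE, edgeR adjusted p = 0.00189). The follistatin-like gene Fstl1 rose by a log2 fold change of 1.12 ± 0.14 (adjusted p = 9.61e-04). Acvr2a, Acvr1b, the subunit gene Inhbb and the inhibitor Fst had log2 fold changes of 0.19, 0.06, -0.28 and 0.39 and were not called. C3ar1, a receptor of the VGF peptide TLQP-21 and of complement, rose by a log2 fold change of 1.27 ± 0.14 (SE, edgeR adjusted p = 6.76e-04). C3ar1 is a microglial gene, and 12 of 12 microglial markers were higher in KD, with summed levels of 1440 to 1799 CPM in the controls and 3018 to 3931 CPM in KD and no marker at 0. Their part in the C3ar1 result was not tested.

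The machinery that sorts and cuts peptide precursors was lower in KD for 11 of 16 genes and higher for 1, with a median log2 fold change of -0.57. Over all genes tested, 15.0% were called lower and 15.6% higher. Syt4, a synaptotagmin of dense-core granules, fell the most, by 1.06 ± 0.07 on the log2 scale (SE, n = 3 per group, edgeR adjusted p = 1.34e-04). Scg5, the 7B2 chaperone of the convertase PC2, followed with a fall by 0.95 ± 0.09 (adjusted p = 3.25e-04). The convertase gene Pcsk2 fell by 0.75 (adjusted p = 9.18e-04) and the carboxypeptidase gene Cpe by 0.23 (adjusted p = 0.0349), while Pcsk1 had a log2 fold change of -0.38 and an adjusted p of 0.108. The amidating enzyme gene Pam was the one that rose, from 139, 142 and 147 CPM to 219, 237 and 204 CPM (log2 fold change 0.62 ± 0.07, edgeR adjusted p = 8.17e-04). Scg2 thus moved against most granule genes, among them the granins Chga, Chgb and Scg3, which were all called lower. Of 13 pan-neuronal markers 9 were lower and 2 higher, with summed levels of 6236 to 6603 CPM in the controls and 4540 to 5201 CPM in KD and no marker at 0.

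Immediate early transcription factors, which respond to the same activity, were lower for 8 of 17 genes and higher for 1, with a median log2 fold change of -0.70. The shares of all genes were 15.0% lower and 15.6% higher. Arc, an effector of synaptic plasticity that was counted with this list, was at 338, 413 and 321 CPM in the controls and 65.3, 78.7 and 66.4 CPM in the KD libraries, a fall by 2.35 ± 0.12 on the log2 scale (SE, n = 3 per group, edgeR adjusted p = 7.26e-05). Egr4 fell by 1.90 (adjusted p = 6.77e-04), Npas4 by 1.38 (adjusted p = 0.00117) and Egr1 by 1.22 (adjusted p = 0.0122). Fos, at 35.8, 40.4 and 32 CPM in the controls and 28.04, 31.0 and 43.4 CPM in KD, overlapped between the groups (log2 fold change -0.08, adjusted p = 0.756), and Jun rose by 0.58 in log2 fold change (adjusted p = 0.00412).

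Other neuropeptides of the hippocampus were lower for 4 of 12 tested genes and higher for 1, with a median log2 fold change of -0.60. These counts stand beside 15.0% of all genes called lower and 15.6% called higher. Somatostatin (Sst) fell from 138, 124 and 113 CPM to 59.8, 47.5 and 33.0 CPM (log2 fold change -1.42 ± 0.19, SE, edgeR adjusted p = 0.00142). Its relative cortistatin (Cort) fell by 1.31 on the log2 scale (adjusted p = 0.00875), and cholecystokinin (Cck) fell by 0.87 (adjusted p = 2.98e-04). Neuropeptide Y (Npy), at 34.1, 41.6 and 33.0 CPM in the controls and 64.7, 56.9 and 26.6 CPM in KD, was not called (log2 fold change 0.45, adjusted p = 0.276). Sst, Npy and Vip are themselves counted among the 12 interneuron markers, of which 8 were lower in KD, and the part of those cells in the falls of Sst and Cort was not tested. As with Penk, KD libraries 1 and 2 lay above the controls in Npy and KD library 3 did not. Gastrin-releasing peptide (Grp) rose, from 7.46, 4.001 and 6.29 CPM to 44.4, 39.9 and 13.8 CPM (log2 fold change 2.47 ± 0.43, adjusted p = 0.00431), again with KD library 3 the lowest of its group.

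**Figure D4:**
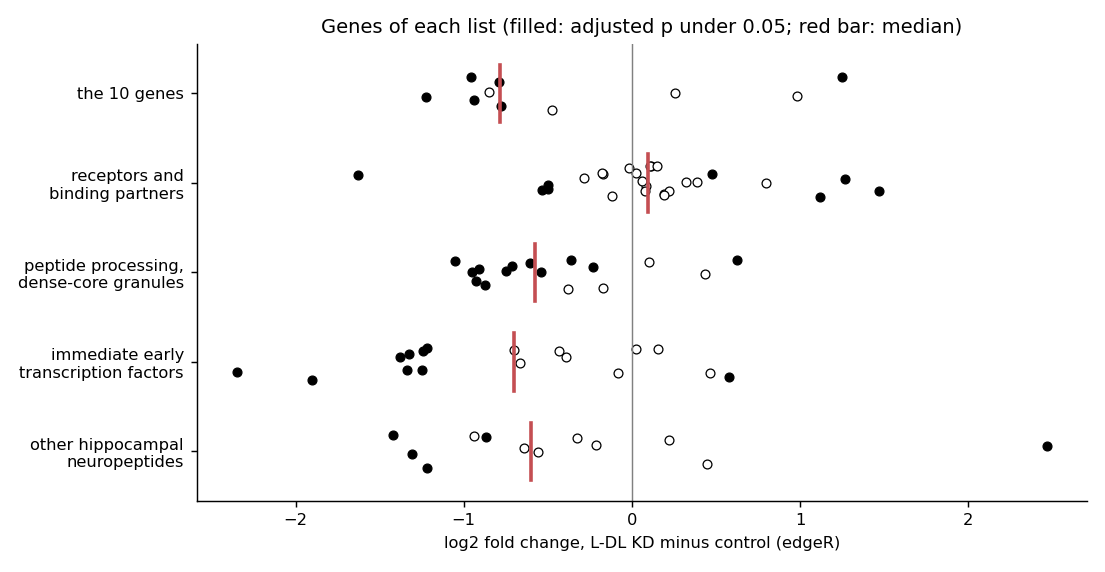
Log2 fold change of each tested gene, L-DL KD minus control (horizontal axis), for the 10 factors and 4 lists of related genes, with called genes filled and the median of each list as a red bar. The medians are -0.78 for the 10 genes, 0.10 for receptors and partners, -0.57 for peptide processing, -0.70 for immediate early factors and -0.60 for other neuropeptides.

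The counts of called genes in the remaining marker lists stand beside the 30.5% called over all genes, and some lists lie at or below that share. Of these lists, 6 of 10 CA1 pyramidal genes were lower and 1 higher, 3 of 10 genes of CA3 pyramidal and mossy cells were lower and 2 higher, and 4 of 9 genes of amygdala and cortex excitatory neurons were lower and the others not called. Genes of endothelial and mural cells were higher for 8 of 10, astrocyte genes were higher for 2 and lower for 4 of 10, oligodendrocyte genes were higher for 2 and lower for 1 of 10, and of 5 tested genes of hypothalamus and thalamus 1 was higher and 1 lower. None of the 8 choroid plexus genes was called by edgeR (adjusted p from 0.674 to 0.996). They varied widely between libraries within both groups, and their control and KD values overlapped.

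**Figure D5:**
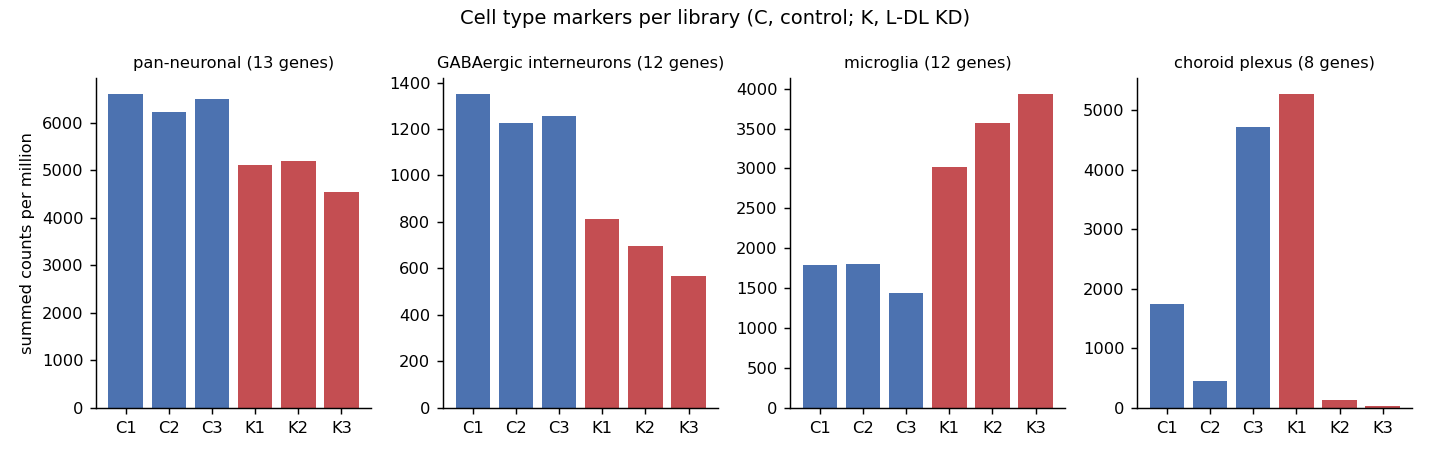
Summed level of 4 lists of cell type markers in each library, in CPM (vertical axes from 0), with control libraries 1 to 3 in blue (C1 to C3) and L-DL KD libraries 1 to 3 in red (K1 to K3). Neuronal and interneuron markers are lower and microglial markers higher in all 3 KD libraries, while choroid plexus markers are highest in K1 and C3 and lowest in K3.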

How the data were processed

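RNA-seq of mouse hippocampus comprised 3 control and 3 L-DL KD libraries. The authors deposited, for each Ensembl gene, the unnormalized counts of reads from pairs aligned to GRCm38, and the junction counts, effective lengths and PSI fraction of 5 types of splicing events from rMATS. The submitters' processing notes name Bowtie (version 1.1.2), HISAT2 (version 2.1.0), HTSeq (version 0.6.1) and mm10, and no strand setting was given in the sources used here. The rMATS table also holds the authors' p-values, FDR and PSI differences, which were not used. Its first sample group was read as KD and its second as control, from the sign that the study's methods give to PSI differences.

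Library sizes were adjusted by TMM, and edgeR (version 4.0.16, R version 4.3.3) gave the quasi-likelihood test. The SE of each edgeR log2 change was derived from that test, as the absolute change over the square root of its F statistic. A gene needed 10 or more counts in 3 or more libraries to be tested, with Benjamini-Hochberg adjustment over all of them. Junction counts were tested with edgeR on 12 columns, 1 for each form and library, with library effects, for events that averaged 20 or more counts per library and 1 or more of each form. Gene lengths and symbols came from GENCODE vM21, which matched 52403 of 52550 genes. DESeq2 (version 1.42.0) and limma (version 3.58.1, with a pseudocount of 0.5 on junction counts) were alternatives. The edgeR models of genes and of junction counts were also run on simulated data with the same spread set for every gene or event. No result here rests on those runs. The 10 genes, the lists and the rule for named genes (all 10 genes, a fixed set of their receptors and partners, the 2 largest called rises and falls of each list other than the receptors, and a few fixed genes) were chosen with earlier results of these data known. Acvr1c, Fstl1, Chga, Chgb, Scg3, Drd1, Pde10a, Gad1, Gad2 and Slc32a1 were named after their values were seen. The labels do not say whether replicates came from separate mice, and p-values then measure only the spread between these samples. With 3 against 3 libraries an exact permutation test cannot go below 0.1.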

Additional observations from a re-analysis of the deposited data

How the results depend on the processing

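The direction of all 10 genes' changes was kept under every alternative: scaling by library size, DESeq2, other count filters, the replicate block, and leaving out each library or both choroid-rich libraries, a setting chosen after seeing the data. Scg2, Vgf, Nptx2, Pdyn and Inhba were called under each of them, and Bdnf and Crh under none. Leaving out a library gave 5 to 8 called genes of the 10, with 7 to 12 receptors and partners, 10 to 13 processing genes, 8 to 12 immediate early factors and 4 to 6 other neuropeptides. Calls over all genes ranged from 3498 to 6477, and fell to 3524, 3541 and 3498 without control libraries 1, 2 and 3. Tac1 lost its call under the replicate block (adjusted p = 0.0587) and without 4 of the libraries. Adcyap1 was called by DESeq2 (adjusted p = 0.0442), with at least 30 counts (adjusted p = 0.0499) and without KD library 3, and Penk without a filter (adjusted p = 0.0235) and without KD library 3. The cause was not tested. The replicate block gave 5 called genes of the 10 and 4635 over all genes. Same-numbered control and KD libraries correlated at 0.0626, 0.157 and -0.14 after removing group means, so the numbers were not taken to pair the libraries. Hnrnpdl changed sign with libraries left out (-0.13 to 0.15) and without both choroid-rich libraries (-0.16), never past the threshold. The events of Scg2 (-0.20 to 0.019) and of the 116-base Vgf exon (-0.29 to 0.36) changed sign in log2 ratio with a library left out. Tac1, Adcyap1 and Crh had under 100 counts in each library, so counting error is a larger part of their values than for the other genes.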
